A study of Mus musculus with 60 samples.

Results

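The long transcripts of the imprinted Dlk1-Meg3-Dio3 domain of mouse chromosome 12, with genes on either flank, were followed in chromatin-associated RNA after knockdown of Esrrb. They are 10 genes of the 24260 gene symbols in the deposited tables. The noncoding genes are Meg3, Rian, Mirg and 6430411K18Rik, the protein-coding genes of the domain are Dlk1, Rtl1 and Dio3, and the flanking genes are Begain, Wdr25 and Ppp2r5c. Each row was found by its RefSeq transcript, and where a symbol had several transcripts the 1 with the highest RPKM (reads per kilobase of transcript model, scaled to library depth) summed over the libraries stood for the gene. No expression minimum was applied, and all 10 genes were above 0 in every library. The genes were chosen by their place in or beside the domain with the siEsrrb and siCtrl RPKM of these same libraries already known, and RPKM also picked the transcripts. The differences between the groups below are therefore a description of the libraries.

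The study asked how loss of Esrrb, a nuclear receptor of the stem cell network that binds enhancers, affects genes within their chromatin unit. All cells were E14, a single established line of mouse embryonic stem cells, grown on gelatin with serum and LIF. The siEsrrb group (2 libraries) received an siRNA against Esrrb, and the siCtrl group (2 libraries) a control siRNA. Both were transfected with Lipofectamine RNAiMAX and harvested at 72 h, and RNA was taken from the chromatin pellet, a fraction rich in unspliced, unfinished transcripts. The other 56 samples of the series were not analysed here.

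The domain carries an imprint, so that its genes are used from 1 parental chromosome each. Dlk1, Rtl1 and Dio3 are expressed from the paternal copy, and Meg3, the antisense transcript of Rtl1, Rian and Mirg from the maternal copy, in a single direction from the Meg3 promoter onward. An intergenic region between Dlk1 and Meg3, methylated on the paternal copy, sets this choice. The noncoding transcripts carry a long row of microRNA and C/D box snoRNA genes, and loss of their expression is a known defect of some mouse embryonic and induced stem cell lines.

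The promoter from which the noncoding transcripts are known to start, and that of Dlk1, are shown because these neighbours are read from opposite parental copies. The sequences are from RefSeq, build GRCm38.p6, 250 bases before to 50 after the annotated start, both on the plus strand: Meg3 at chr12:109540746-109541045 and Dlk1 at chr12:109452573-109452872. Capitals mark a cAMP response element.
Meg3 promoter: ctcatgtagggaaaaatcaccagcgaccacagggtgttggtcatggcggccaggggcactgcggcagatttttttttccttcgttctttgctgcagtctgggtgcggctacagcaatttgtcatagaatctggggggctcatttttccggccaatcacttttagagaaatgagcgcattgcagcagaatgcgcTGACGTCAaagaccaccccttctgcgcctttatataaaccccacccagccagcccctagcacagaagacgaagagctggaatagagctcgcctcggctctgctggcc
Dlk1 promoter: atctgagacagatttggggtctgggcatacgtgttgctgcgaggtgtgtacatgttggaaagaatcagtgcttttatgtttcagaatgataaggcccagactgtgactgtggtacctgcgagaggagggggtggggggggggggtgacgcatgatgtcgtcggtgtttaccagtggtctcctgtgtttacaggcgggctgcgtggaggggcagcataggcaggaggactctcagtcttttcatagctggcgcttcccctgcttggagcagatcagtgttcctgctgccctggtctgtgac
A pair of motifs that do not overlap each other were searched on both strands, the ERR element TCAAGGTCA and the cAMP response element TGACGTCA. Windows were found for 8 of the 10 genes, 14 windows in all, and not for Rtl1 and Wdr25. The cAMP response element was in 1 of the 14, that of Meg3, with its first base 57 bases before the start (offset -57), and in 1.79% of the 32851 windows of all genes. The ERR element, the type of site that Esrrb binds, was in 0 of the 14 windows and in 0.423% of all windows. These letters being absent from a window says nothing of sites elsewhere. The Meg3 window held 13 CpG pairs and the Dlk1 window 9, against a median of 7 over all windows.

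Several microRNA genes lie on the strand opposite to Rtl1, within the region that the antisense transcript 6430411K18Rik belongs to. Both mature microRNAs of Mir433 and of Mir127 are shown because their genes stand for that antisense strand in the values below. Of Mir136, miR-136-5p is shown with miR-3071-3p, whose gene lies opposite on the Rtl1 strand, because these overlap. The sequences are from RefSeq (GRCm38.p6), with the seed, bases 2 to 8, in capitals.
miR-433-5p: uACGGUGAgccugucauuauuc
miR-433-3p: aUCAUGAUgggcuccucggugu
miR-127-5p: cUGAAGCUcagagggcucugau
miR-127-3p: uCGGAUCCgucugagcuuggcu
miR-136-5p: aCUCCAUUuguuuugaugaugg
miR-3071-3p: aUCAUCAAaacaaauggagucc
On the genome these span chr12:109591729-109591750, chr12:109591781-109591802, chr12:109592854-109592875, chr12:109592888-109592909 and chr12:109595331-109595352 on the plus strand and, for miR-3071-3p, chr12:109595329-109595350 on the minus strand. The last pair shares 20 bases as reverse complements. No seed was shared among the 13 mature microRNAs of the 7 genes over Rtl1, and 10 seeds were shared by a pair among all 114 mature microRNAs of the domain.

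The libraries held 22363943 and 61857158 reads in siEsrrb replicates 1 and 2, and 24764879 and 68002338 in siCtrl replicates 1 and 2. These totals, and the reads behind each RPKM, were recovered from the deposited values. Esrrb itself stood at 1.38 and 2.20 RPKM in siEsrrb and 3.23 and 3.36 RPKM in siCtrl, 44.2% and 67.0% of control by replicate number after scaling, in which each library is multiplied by 1 factor that brings the typical gene to the same level. Stem cell markers were present (9 of 9 above 0.5 scaled RPKM, summed 97.4 and 102 RPKM in siEsrrb, 115 and 124 in siCtrl). Of these 9, 6 were lower in both siEsrrb libraries, Esrrb among them, 1 (Pou5f1) was higher and 2 overlapped. Klf4 had the lowest fold change of them, at 21.8% and 41.3% of control by replicate number. Over all 21334 genes above 0 in any library, 20.8% were higher in both siEsrrb libraries and 18.5% lower. The same shares stand beside the counts of the marker lists that follow. Fibroblast markers (2 of 8 above 0.5) summed to 3.28 and 3.30 RPKM in siEsrrb against 1.73 and 2.24 in siCtrl, and neuroectoderm markers (3 of 4 above 0.5) to 7.13 and 7.85 in siEsrrb against 4.69 and 4.66 in siCtrl. Tagln (2.32 and 1.83 RPKM in siEsrrb, 1.22 and 1.20 in siCtrl) and Nes (5.45 and 5.60 in siEsrrb, 2.87 and 2.88 in siCtrl) led these lists. Of the 8 fibroblast markers, Tagln, Acta2 and Thy1 were higher in both siEsrrb libraries, and 5, the collagen genes among them, overlapped. Sox1 had 0.709 and 0.965 RPKM in siEsrrb and 0.570 and 0.510 in siCtrl, while Pax6 (0.953 and 1.26 in siEsrrb, 1.22 and 1.25 in siCtrl) and Zbtb16 overlapped between the groups. Mesendoderm (5), primitive endoderm (5) and trophectoderm (4) markers each summed to at most 0.41 RPKM in any library, and 0 markers of any list were at 0 in all 4 libraries. The part of these marker differences in the results was not tested. In such bulk samples, fewer cells of a type and less RNA per cell cannot be told apart. Nothing in the labels ties the replicates to separate cultures, and each p-value below therefore reflects the scatter of these 4 libraries alone, which may be technical.

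The noncoding transcripts were abundant on chromatin, and all 4 were higher in both siEsrrb libraries than in both siCtrl libraries. Meg3, which gives a long noncoding RNA kept in the nucleus, had 38.1 and 36.9 RPKM in siEsrrb replicates 1 and 2, against 26.0 and 25.5 RPKM in siCtrl. As deposited, the 2 siEsrrb values lay close together. After scaling they were further apart, at 41.4 and 35.0 in siEsrrb against 27.3 and 23.6 in siCtrl. The Meg3 values rested on 23573 and 63137 reads in siEsrrb and on 17796 and 47975 in siCtrl. By replicate number, siEsrrb stood at 1.52 times siCtrl in replicate 1 and 1.48 times in replicate 2 after scaling. The 95% intervals, which cover counting error only, were 1.49 to 1.55 and 1.47 to 1.50.

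Rian, the host of the domain's C/D box snoRNAs, had 22.7 and 23.1 RPKM in siEsrrb and 14.8 and 15.5 RPKM in siCtrl. Its groups did not overlap, and its ratios were 1.59 and 1.53. Mirg, the transcript that carries the last group of microRNAs, had 15.2 and 14.0 RPKM in siEsrrb and 8.35 and 8.15 RPKM in siCtrl. Both siEsrrb libraries were higher, with ratios of 1.89 (interval 1.81 to 1.98) and 1.76 (1.71 to 1.81). 6430411K18Rik, annotated on the strand opposite to Rtl1, had 56.1 and 44.1 RPKM in siEsrrb and 28.3 and 26.6 RPKM in siCtrl. It had the highest RPKM of the 10 genes in every library, from a short model of 1315 bases (923 to 3591 reads). Its siEsrrb libraries also differed most from each other among the noncoding genes, and its ratios were 2.05 and 1.70.

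**Figure D1:**
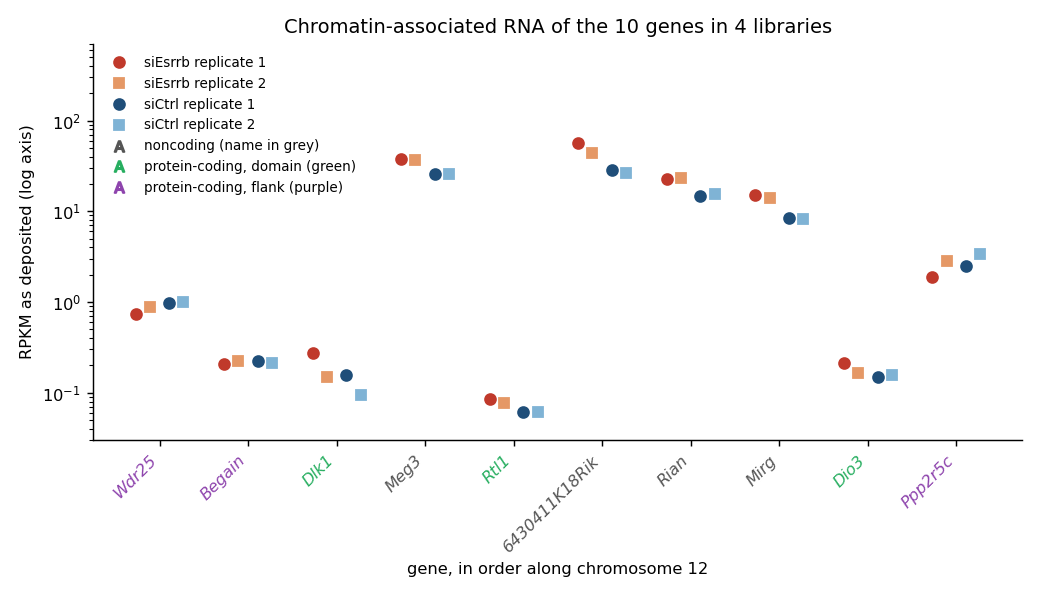
Deposited RPKM of each gene in the 4 libraries, on a log axis, with genes in their order along chromosome 12 and each library drawn as 1 point (siEsrrb left of siCtrl). The noncoding genes sit between 8.15 and 56.1 RPKM, with both siEsrrb points above both siCtrl points, while Dlk1, Rtl1 and Dio3 sit under 0.3 RPKM.

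On the log2 scale with a pseudocount of 0.5 RPKM, a scale that shrinks the differences of low genes, limma gave fold changes of 0.58 (SE 0.15) for Meg3, 0.63 (SE 0.10) for Rian, 0.83 (SE 0.15) for Mirg and 0.89 (SE 0.24) for 6430411K18Rik. The limma adjusted p over all 21334 genes above 0 was 0.456, 0.373, 0.379 and 0.464 in the same order. None passed the threshold of 0.05, and limma passed 0 genes of the 21334 (0%), of which 2018 had an unadjusted p under 0.05. In tests on simulated data the same fit passed no gene, also of those made to differ, so a miss in it says little. Over the genes with at least 20 reads a library on average, a fit that did pass most of them, the limma adjusted p was 0.331 for Meg3, 0.248 for Rian, 0.248 for Mirg and 0.332 for 6430411K18Rik. The simulated differences were larger than those of the noncoding genes here and lay in genes with many reads. No effect of replicate number was simulated. How often this fit misses differences of the present size is therefore not known. Voom on the recovered reads, over 15163 genes with at least 20 reads a library on average, likewise passed 0 genes (0%), and 1815 of them had an unadjusted p under 0.05. It gave the noncoding genes adjusted p-values of 0.156 to 0.208. With 2 libraries against 2, the smallest p that an exact permutation test allows is 0.33, and no such test was run. All 4 noncoding genes were higher in both siEsrrb libraries, a pattern that 20.8% of all genes tested showed. Their median log2 fold change was 0.73, against 0.00 over all genes tested. In a ranking of the 7071 genes with a mean of at least 1 scaled RPKM by log2 fold change, 6430411K18Rik was at place 94 from the top, Mirg at 113, Rian at 194 and Meg3 at 225.

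The transcripts listed for Meg3 gave like values. NR_027651, which stood for the gene, had ratios of 1.52 and 1.48, NR_027652 had 1.52 and 1.48, and NR_003633 had 1.46 and 1.44. Their models span 27655, 30734 and 23253 bases, and so share most of their reads.

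Within a library, levels can be set against Meg3 without any scaling between libraries. Rian stood at 59.7% and 62.7% of Meg3 RPKM in siEsrrb and at 56.9% and 60.8% in siCtrl, ranges that overlap. Mirg stood at 40.0% and 37.8% of Meg3 in siEsrrb and at 32.1% and 31.9% in siCtrl. 6430411K18Rik stood at 147% and 120% in siEsrrb and at 109% and 104% in siCtrl. For Mirg the ratio to Meg3 was 1.24 times (interval 1.18 to 1.31) and 1.18 times (1.15 to 1.22) that of siCtrl by replicate number, and for 6430411K18Rik 1.35 times (1.24 to 1.47) and 1.15 times (1.09 to 1.21). These Wald intervals cover counting error only. Both Mirg and 6430411K18Rik were higher relative to Meg3 in the 2 siEsrrb libraries than in the 2 siCtrl libraries, and this difference was not tested over libraries.

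**Figure D2:**
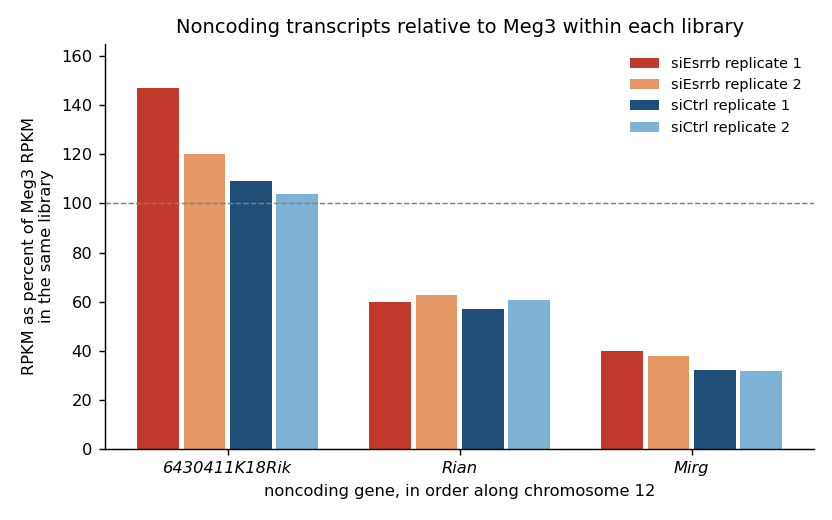
RPKM of 6430411K18Rik, Rian and Mirg as a percent of Meg3 RPKM in the same library, 1 bar per library (siEsrrb left of siCtrl), with the dashed line at the level of Meg3. The Mirg bars are 40.0% and 37.8% in siEsrrb and 32.1% and 31.9% in siCtrl, while the Rian bars of the groups overlap.

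The protein-coding genes of the domain were near the floor of detection. Dlk1, a transmembrane protein related to Notch ligands, had 0.276 and 0.151 RPKM in siEsrrb and 0.155 and 0.0952 RPKM in siCtrl, from 61 and 92 reads in siEsrrb and 38 and 64 in siCtrl. The groups overlapped, since siEsrrb replicate 2 lay just under siCtrl replicate 1. The ratio by replicate number was 1.84 (interval 1.21 to 2.84) and 1.62 (1.16 to 2.26). Replicate 1 was above replicate 2 within both groups, by about as much as siEsrrb was above siCtrl within a number. The limma log2 fold change was 0.20 (SE 0.14, adjusted p 0.736), and voom, which adds no pseudocount of 0.5 RPKM, gave 0.75 (SE 0.47, adjusted p 0.618). The limma value was 0.04 without siEsrrb replicate 1, 0.36 without siEsrrb replicate 2 and 0.11 without siCtrl replicate 2. Of the 5 Dlk1 transcripts listed, NM_001190703 stood for the gene and 3 others had the same values.

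Rtl1, a gene derived from a retrotransposon that is needed in the placenta, had 0.0854 and 0.0772 RPKM in siEsrrb and 0.0617 and 0.0618 RPKM in siCtrl. These are 10 and 25 reads in siEsrrb against 8 and 22 in siCtrl. Both siEsrrb values were higher, but the counting intervals of the ratios, 0.51 to 4.18 in replicate 1 and 0.693 to 2.38 in replicate 2, span no difference. Dio3, the enzyme that inactivates thyroid hormone, had 0.215 and 0.164 RPKM in siEsrrb and 0.151 and 0.157 RPKM in siCtrl, from 9 and 19 reads in siEsrrb against 7 and 20 in siCtrl. After scaling the groups overlapped (0.234 and 0.156 in siEsrrb, 0.159 and 0.146 in siCtrl). A difference in either gene was not detectable at this depth, with limma adjusted p-values of 0.587 for Rtl1 and 0.757 for Dio3. Dio3os, a noncoding gene beside Dio3, had 8 and 10 reads in siEsrrb and 5 and 16 in siCtrl.

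The imbalance between the parts of the domain was large in every library. Dlk1 stood at 0.724% and 0.408% of Meg3 RPKM in siEsrrb and at 0.598% and 0.373% in siCtrl. The 4 noncoding genes together took 0.266% and 0.262% of all library reads in siEsrrb and 0.173% and 0.175% in siCtrl. Dlk1, Rtl1 and Dio3 together took 0.000358% and 0.00022% in siEsrrb and 0.000214% and 0.000156% in siCtrl. The noncoding sums lay well apart between the groups, while the coding sum of siEsrrb replicate 2 was close to that of siCtrl replicate 1.

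Reads on opposite strands were kept apart in the deposited values, as far as the domain shows it, although how strand was used is not given in the sources used here. Mir3071, on the minus strand, had 0 and 0 reads in siEsrrb and 0 and 1 in siCtrl. Mir136, which overlaps it on the plus strand, had 59 and 129 reads in siEsrrb and 34 and 90 in siCtrl. Mir299b and Mir3544 on the minus strand had 0 reads in all 4 libraries, while their plus-strand partners Mir299a and Mir337 had 5 to 16 and 21 to 58 reads. The low count of Rtl1 beside the high count of 6430411K18Rik, which the GRCm38.p6 annotation places within Rtl1 under the synonym PEG11as, is the same contrast over longer models.

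**Figure D3:**
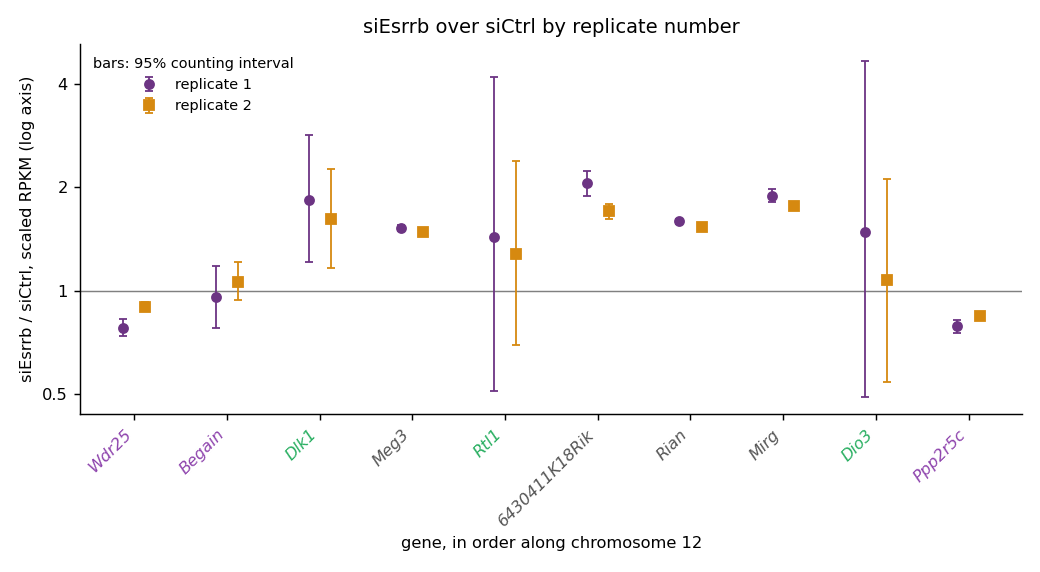
Ratio of siEsrrb to siCtrl in scaled RPKM, on a log axis, for replicate 1 (circles) and replicate 2 (squares), with 95% counting intervals as bars and genes in their order along chromosome 12. The noncoding genes lie between 1.48 and 2.05 with narrow bars, Rtl1 and Dio3 have bars across 1, and Wdr25 and Ppp2r5c lie under 1 in both replicates.

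The flanking genes did not share the direction of the noncoding genes. Begain, which lies next to Dlk1 and encodes a protein of the synapse, had 0.210 and 0.224 RPKM in siEsrrb and 0.226 and 0.215 RPKM in siCtrl. The groups overlapped, and the ratios were 0.960 (interval 0.778 to 1.18) and 1.06 (0.940 to 1.21). Wdr25, a gene of the WD repeat family beyond Begain, had 0.737 and 0.885 RPKM in siEsrrb and 0.980 and 1.01 RPKM in siCtrl. Both siEsrrb libraries were lower, as in 18.5% of all genes tested, at 78.0% and 89.7% of control (limma log2 fold change -0.17, SE 0.08, adjusted p 0.620). Ppp2r5c, a regulatory subunit of protein phosphatase 2A on the far side of Dio3, had 1.90 and 2.81 RPKM in siEsrrb and 2.51 and 3.41 RPKM in siCtrl. Its groups overlapped, because replicate 2 was above replicate 1 in both, and siEsrrb stood at 78.7% and 84.5% of control by number (-0.25, SE 0.15, adjusted p 0.699). Its log2 fold change was -0.10 without siEsrrb replicate 1, -0.40 without siEsrrb replicate 2 and -0.13 without siCtrl replicate 2.

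Set against each other, the 4 noncoding genes had limma log2 fold changes of 0.58 to 0.89 and the 6 protein-coding genes of -0.25 to 0.20. The medians were 0.73 and 0.03, and 0.70 lay between them. The pseudocount shrinks the values of the low coding genes. As log2 ratios of scaled RPKM by replicate number, with no pseudocount, Dlk1 had 0.88 and 0.70, Rtl1 0.52 and 0.36 and Dio3 0.56 and 0.10, with a median of 0.56 in replicate 1 and 0.36 in replicate 2. On that scale the noncoding genes had medians of 0.80 and 0.69 and the flanking genes of -0.35 and -0.16. The values of Dlk1 lay within the range of the noncoding genes, with wide counting intervals. Wdr25 and Ppp2r5c were lower in siEsrrb under both replicate numbers. Begain, with -0.06 and 0.09, was near Dio3 in replicate 2. The coding median rests partly on genes with few reads, and it was 0.10 with a pseudocount of 0.1 RPKM and -0.11 with voom, where Rtl1 and Dio3 drop out for fewer than 20 reads. Of the coding genes, 1 (Rtl1) was higher in both siEsrrb libraries, 1 (Wdr25) was lower and 4 overlapped, near the 20.8% higher and 18.5% lower among all genes tested. Relative to Meg3, Begain stood in siEsrrb at 63.2% and 71.8% of its siCtrl value, Wdr25 at 51.3% and 60.5% and Ppp2r5c at 51.8% and 57.0%. For the coding genes of the domain the same measure was 121% and 109% for Dlk1, 94.4% and 86.3% for Rtl1 and 97.1% and 72.2% for Dio3. The counting intervals of Dlk1, 0.808 to 1.82 and 0.794 to 1.50 times siCtrl, lay above the values of the flanking genes. In replicate 2 the Dlk1 interval overlapped that of Begain, 0.635 to 0.812. The intervals of Rtl1 (0.372 to 2.39 and 0.487 to 1.53) and Dio3 (0.361 to 2.61 and 0.385 to 1.35) included the values of the flanking genes. In replicate 2 Dio3 was near Begain.

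By level, the order in siCtrl was 6430411K18Rik, Meg3, Rian, Mirg, Ppp2r5c, Wdr25, Begain, then Dio3 and Dlk1, and Rtl1 last. After scaling, 6430411K18Rik (29.7 and 24.6) and Meg3 (27.3 and 23.6) overlapped there. Dio3 and Dlk1 did not differ beyond the spread between the siCtrl libraries. In siEsrrb the order of the first 6 was the same, and Dlk1, Begain and Dio3 overlapped.

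Genes further out on the chromosome were read from a list of 16 symbols, of which 15 were found. Of these, 1 was higher in both siEsrrb libraries, 5 were lower and 9 overlapped, against 20.8% higher and 18.5% lower among all genes tested. Their median log2 fold change was -0.05, and 0 passed limma (smallest adjusted p 0.441). Dync1h1, the dynein heavy chain, had 17.9 and 17.2 RPKM in siEsrrb and 13.5 and 14.6 in siCtrl, and was the 1 that was higher. Mok, a kinase gene, had the lowest fold change of the list, with 1.13 and 2.25 RPKM in siEsrrb and 3.46 and 3.98 in siCtrl (-0.96, SE 0.23). Yy1 and Hsp90aa1, a transcription factor and a chaperone, had -0.12 (SE 0.16) and -0.05 (SE 0.11), with overlapping groups.

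The small RNA genes between Dlk1 and Dio3 were mostly higher in siEsrrb, as their hosts were. Their rows count reads over a hairpin or snoRNA body and are no measure of mature microRNA. They share reads with Rian, Mirg and Meg3 where they lie inside these. Whether the reads came from the host transcript or from a processed RNA was not tested. Of 68 annotated genes, 61 microRNA and 7 snoRNA genes, 65 were above 0 and 53 had at least 20 reads a library on average. Among the 53, 44 were higher in both siEsrrb libraries, 0 were lower and 9 overlapped, against 22.7% higher and 20.9% lower among all genes with as many reads. Their median log2 fold change was 0.86, and 51 of 53 had a ratio above 1 under both replicate numbers. For 285 microRNA and snoRNA genes elsewhere in the genome with as many reads, 57 were higher, 22 lower and 206 overlapped, with a median of 0.14. Of the 225 genes ranked at or above Meg3, 52 were small RNA genes of the domain (of 64 ranked), 102 were microRNA or snoRNA genes elsewhere and 64 were protein-coding. None of the domain's small RNA genes passed limma over all genes (smallest adjusted p 0.373).

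Along the domain, the values differed from stretch to stretch. Within Meg3, Mir1906-1 had 290 and 258 RPKM in siEsrrb and 185 and 179 in siCtrl, and Mir770 had 82.3 and 57.4 in siEsrrb and 55.4 and 41.9 in siCtrl, where the groups overlapped after scaling. Over Rtl1, Mir433 had 70.7 and 53.8 RPKM in siEsrrb and 35.2 and 34.5 in siCtrl. Mir127 there had 54.3 and 32.3 in siEsrrb and 24.8 and 18.3 in siCtrl. In that stretch 5 of 6 plus-strand genes were higher in both siEsrrb libraries, and their summed reads gave ratios of 1.88 (interval 1.64 to 2.16) and 1.69 (1.55 to 1.85).

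In Rian, all 10 small RNA genes were higher in both siEsrrb libraries. Mir370 had 126 and 109 RPKM in siEsrrb and 64.9 and 62.9 in siCtrl. The snoRNA gene AF357359 had 334 and 299 in siEsrrb and 183 and 186 in siCtrl. It had the highest mean RPKM of the domain's small RNA rows, from a model of only 30 bases (136 to 555 reads). Mir1906-1 had more reads in every library (367 to 1276). The 7 snoRNA genes had a median log2 fold change of 0.82, within a range of 0.56 to 0.90, and AF357355 had 23.3 and 27.8 RPKM in siEsrrb and 14.2 and 13.7 in siCtrl. The summed reads of the stretch gave ratios of 1.85 (1.71 to 2.00) and 1.77 (1.68 to 1.86), above the 1.59 and 1.53 of Rian as a whole.

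Between Rian and Mirg the values dipped. From Mir882 to Mir329 the 9 plus-strand genes had median RPKM of 3.69 and 4.11 in siEsrrb and 5.00 and 2.12 in siCtrl, and 3 of them were higher in both siEsrrb libraries while 6 overlapped. Mir379, the first of a large microRNA group, had 3 and 8 reads in siEsrrb and 8 and 7 in siCtrl. From Mir494 to Mir485 the 20 genes had medians of 20.7 and 15.9 RPKM in siEsrrb and 7.31 and 9.79 in siCtrl, and 18 were higher. The boundary between these stretches was chosen after their values were seen. Summed reads of the later stretch gave ratios of 2.29 (2.03 to 2.60) and 1.85 (1.72 to 2.00), and those of the earlier one 1.18 (0.906 to 1.53) and 1.79 (1.49 to 2.16). In Mirg, 7 of 10 genes were higher, with Mir154 at 42.0 and 30.4 RPKM in siEsrrb and 21.4 and 14.3 in siCtrl. Mir1247, between Mirg and Dio3 on the minus strand, had 0 reads in all libraries.

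**Figure D4:**
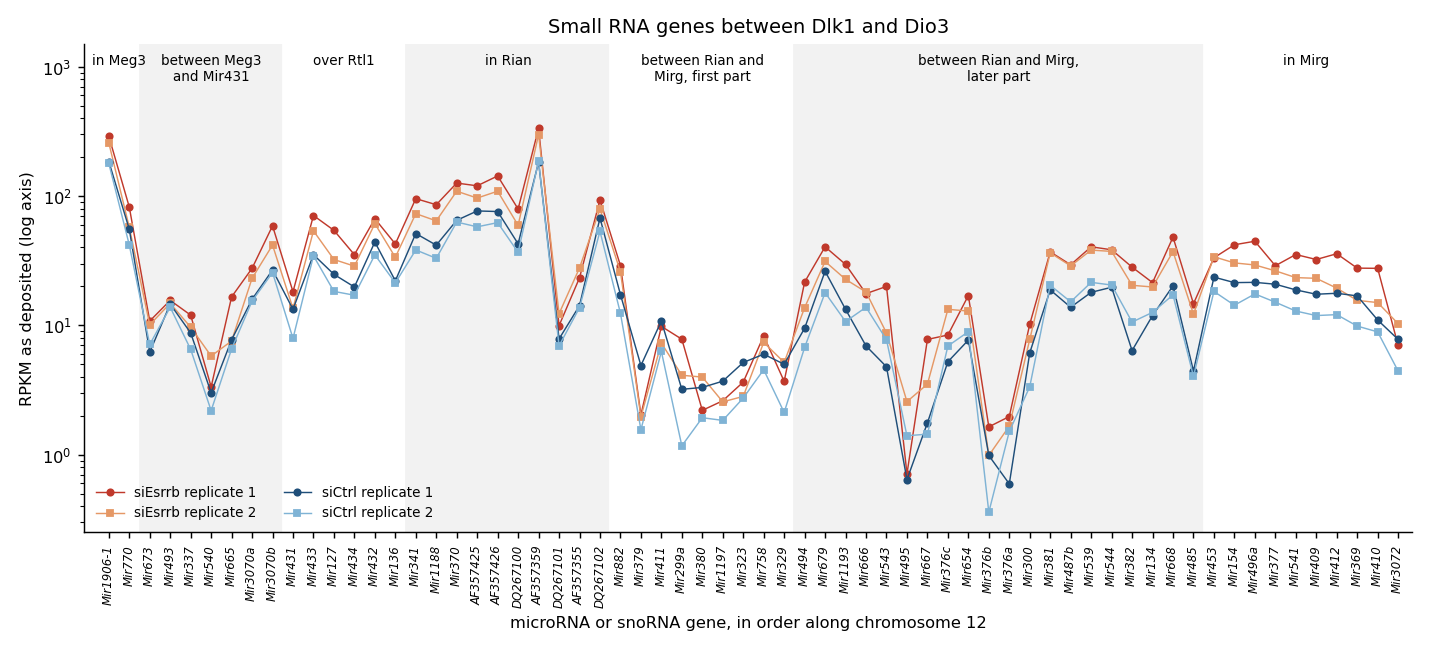
Deposited RPKM, on a log axis, of the plus-strand microRNA genes and the snoRNA genes between Dlk1 and Dio3 in their order along chromosome 12, 1 line per library, with the stretches named at the top. Both siEsrrb lines run above both siCtrl lines over all 10 genes in Rian, and the lines of the groups cross at 6 of the 9 genes from Mir882 to Mir329, where the medians per library are 2.12 to 5.00 RPKM.

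A list of 21 genes, all found, held genes linked to imprints or chromatin and the microRNA processing genes Drosha, Dgcr8 and Dicer1. Of these, 4 were higher in both siEsrrb libraries (Dnmt3b, Dnmt3a, Aff3 and Dppa3), 10 were lower, Drosha and Dgcr8 among them, and 7 overlapped. The differences of Drosha (86.5% and 98% of control by replicate number) and Dgcr8 (92.8% and 97.4%) were small, and Dicer1 overlapped. Among all genes tested, 20.8% were higher and 18.5% lower. Over the list the median log2 fold change was -0.09, and 0 passed limma (smallest adjusted p 0.373). The highest fold change was that of Dnmt3b (7.48 and 4.73 RPKM in siEsrrb, 3.08 and 2.13 in siCtrl). The lowest was that of Tet2 (1.23 and 2.30 in siEsrrb, 4.42 and 4.39 in siCtrl). Zfp57, a zinc finger protein that protects imprints from loss of methylation, had 9.92 and 12.9 RPKM in siEsrrb and 23.4 and 21.9 in siCtrl (-0.93, SE 0.14). Tet1, which oxidises methylated cytosine, had 13.4 and 13.5 RPKM in siEsrrb and 21.6 and 19.0 in siCtrl. Trim28, the corepressor that Zfp57 recruits, had 39.9 and 33.2 RPKM in siEsrrb and 43.9 and 37.4 in siCtrl, and Uhrf1, a partner of the maintenance methyltransferase, 5.93 and 6.73 in siEsrrb and 6.32 and 7.03 in siCtrl. These are levels of RNA on chromatin, and no methylation was measured in the files analysed.

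The genes with the profile nearest to that of Meg3 over the 4 libraries were sought among 7001 genes outside the domain with a mean of at least 1 scaled RPKM. Likeness was the Euclidean distance between log2 profiles centred on their means. The 5 nearest were Platr22 (distance 0.0725), Fzd2 (0.0729), Armcx4 (0.0775), Mirlet7f-1 (0.0867) and Jun (0.0977). Of these, Mirlet7f-1 had only 6 to 24 reads a library, so its place is uncertain. Platr22, a noncoding gene on chromosome 1, had 7.27 and 7.01 RPKM in siEsrrb and 5.17 and 4.85 in siCtrl. Rian lay at a distance of 0.0967, so that 4 of these genes were nearer to Meg3 than Rian was. Mirg lay at 0.256, 6430411K18Rik at 0.377 and Dlk1 at 0.382, and Ppp2r5c, at 0.957, was the farthest of the 10 genes.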

How the data were processed

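Chromatin-associated RNA was sequenced from 4 libraries, 2 per group, with a stranded kit after removal of ribosomal RNA, per the labels' protocols. The authors deposited 1 RPKM value per RefSeq transcript and library (34929 transcripts). The submitters' processing notes name CASAVA 1.4, TopHat2 and mm9 for all 4 libraries and Bowtie 1.1.1 and Bowtie2 besides for replicate 1. The counting program, annotation and use of strand: not given in the sources used here. A table of the whole series was not used.

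Symbols were found for 34631 transcripts (24260 symbols) and 298 transcripts were left out. Symbols, gene order and sequences come from RefSeq GRCm38.p6, whose coordinates differ from mm9, so no coordinates of the measured rows are given. Whole reads within 0.001 were recovered for 31753 (99.9%) of 31771 transcripts above 0. RPKM were multiplied by median-of-ratios factors (1.09 and 0.948 for siEsrrb replicates 1 and 2, 1.05 and 0.925 for siCtrl). Then log2(scaled RPKM + 0.5) was fitted by limma 3.58.1 under R 4.3.3 (trended eBayes, no replicate block, two-sided, Benjamini-Hochberg over 21334 genes above 0). Scripts were tested on simulated data, where the fit over all genes above 0 passed no gene and the fits over genes with at least 20 reads passed most of those changed. Ratios by replicate number are of scaled RPKM, with exact conditional binomial intervals.

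The genes, the lists and the rule for named genes (the 10 genes, up to 4 genes with the highest level per list, Esrrb, and the 5 profiles nearest to Meg3) were chosen with earlier results of these data known. Genes named outside that rule, mostly single microRNA and snoRNA genes, were chosen after their values were seen. A fixed list of the domain's small RNA genes missed some annotated genes and held Snora28, which lies outside, so the annotated set is reported. By the fixed lists, 40 of 57 microRNA genes above 0 and 4 of 5 snoRNA genes were higher in both siEsrrb libraries.

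Alternatives were other pseudocounts, a filter on low values, other library scalings, leaving out each library, a replicate block, voom on recovered reads and the mean over transcripts. Fits over genes with at least 20 reads were added after seeing the data.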

Additional observations from a re-analysis of the deposited data

How the results depend on the processing

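The direction of Meg3, Rian, Mirg and 6430411K18Rik held under all 15 alternatives. Their log2 fold changes were 0.46 to 0.70, 0.54 to 0.71, 0.67 to 0.99 and 0.62 to 1.16 in that order. For all 4, each siEsrrb library used lay above each siCtrl library used in every alternative. Pseudocounts, filters, the block, voom and leaving out a library could not change that order, so it adds no support there. Leaving out each library gave noncoding medians of 0.58 to 0.85, coding medians of -0.0019 to 0.05 and a difference between them of 0.58 to 0.80. It also gave 1 to 4 coding genes higher and 1 to 2 lower, where a lone library is assumed to vary like the other group. The coding median was 0.10 and 0.02 at pseudocounts of 0.1 and 1 RPKM, -0.21 at a mean of at least 0.5 RPKM, 0.02 with RPKM as deposited, 0.03 with upper quartile scaling, -0.11 with voom and -0.08 with at least 20 reads. The difference of medians was 0.93 at a mean of at least 0.5 RPKM, 0.86 with voom and 0.81 with at least 20 reads. Coding genes higher in both siEsrrb libraries numbered 2 with RPKM as deposited (Dio3 besides Rtl1) and 0 at a mean of at least 0.5 RPKM, with voom and with at least 20 reads, where Rtl1 is not tested. Begain had a log2 fold change of -0.01 with RPKM as deposited, and -0.03 to 0.04 when each library was left out (below 0 without siEsrrb replicate 1 and without siCtrl replicate 2); the cause was not tested. Leaving out each library gave 0.04 to 0.36 for Dlk1, 0.03 to 0.08 for Rtl1, 0.01 to 0.17 for Dio3, -0.21 to -0.12 for Wdr25 and -0.40 to -0.10 for Ppp2r5c. Depth limits Rtl1, Dio3 and Dlk1, which had 7 to 92 reads a library.

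No label states that the replicate numbers pair the libraries, and deviations of the same number correlated at 0.40 over 7071 genes. With that number as a block, limma passed 0 genes (smallest adjusted p 0.219), limma with at least 20 reads passed 260 of 15163 (1.71%) and voom 3762 (24.8%). Under the block with at least 20 reads, 2 of 8 tested members passed (Rian and Mirg, adjusted p 0.0482), and under the voom block 7, all but Begain. The coding median was -0.08 and -0.10 and the difference of medians 0.81 and 0.86 in these 2 fits, with 0 coding genes higher in both siEsrrb libraries in either.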
